A study of Homo sapiens with 9 samples.

Results

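The comparison described here set the X-376-resistant derivative of the H3122 cell line, X376R, against its sensitive parent, across all genes of an expression array. H3122 is an established cell line from a human lung adenocarcinoma and holds the EML4-ALK fusion (E13;A20 in the labels), and X-376 is an inhibitor of the ALK tyrosine kinase. The members were the 3 X376R and 3 Parental samples, 6 of the 9 in the series, taken by the names in their labels. Parental cells were sensitive to both X-376 and PF1066, also called crizotinib. X376R cells were derived experimentally from them to resist X-376, and the remaining 3 samples, PF1066R, to resist PF1066. All 9 samples were total RNA of cultured cells that share the fusion. Only 1 resistant line stands for each drug. The sources used here do not say whether inhibitor was present at lysis or whether the 3 samples of a line came from separate cultures. The p-values below thus cover the spread among the samples at hand, which may be only technical.

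The fusion joins the coiled-coil part of EML4 to the kinase part of ALK, which makes the kinase active without a ligand and drives the RAS-ERK, PI3K-AKT and STAT3 pathways. Active ERK raises transcription of its own feedback inhibitors, the DUSP phosphatases and the SPRY and SPRED proteins, so their transcripts are often used as a readout of the pathway. ALK-positive lung cancers are known to escape ALK inhibitors through mutations or extra copies of ALK, through other receptor kinases such as EGFR, MET, KIT and AXL, and through a shift of epithelial cells to a mesenchymal state.

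Signals are given as log2 of background-corrected, quantile-normalized intensity, so that a difference of 1 is a doubling, and they may be compared between arrays but not between genes. Values are listed in the order of replicates 1, 2 and 3. A gene was called higher or lower where limma's test over all 9 arrays gave a Benjamini-Hochberg adjusted p under 0.05, and every adjusted p below comes from that test. The mean raw signal of an array was 254.2 ± 37.89 in Parental and 172.9 ± 9.09 in X376R (SD, n = 3 each), and the arrays of the 2 lines did not overlap, with X376R between 162.5 and 179.6 and Parental between 230.5 and 297.9. Between 35.9% and 51.7% of probes lay above the background limit on an X376R array and between 41.8% and 65.7% on a Parental array. Within a line, arrays correlated at 0.985 to 0.989 in Parental and 0.980 to 0.985 in X376R across genes, against 0.929 to 0.942 between the 2 lines. Principal component analysis gave a first axis with 50.3% of the variance, which put the 3 X376R arrays at one end and the 3 Parental arrays at the other.

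X376R cells differed from the parent in 3875 of 13769 genes tested, which is 28.1%. Of these, 1926 (14.0% of all tested) were higher and 1949 (14.2%) lower. These shares are the background for every list count below, and the counts of several lists lie near them. A change of at least 2-fold was reached by 536 genes (3.89%), 248 higher (1.80%) and 288 lower (2.09%). Changes ranged from -4.26 to 3.76 on the log2 scale with a median of -0.01 and a median SE of 0.12. The 3 arrays of each line did not overlap for 5338 genes (38.8%), with X376R above for 2574 (18.7%) and Parental above for 2764 (20.1%), and 3669 of the 5338 were also called. The even split depended on the scaling. Cyclic loess gave 50.3% of calls higher. When each array was centred only on its own median the middle of all genes moved to -0.19, and 387 genes were called higher against 4204 lower, so that 8.43% of calls were higher instead of 49.7%. With array brightness as a covariate 1149 genes were called, 585 higher and 564 lower, of which 1123 were among the 3875. Since all Parental arrays were brighter than all X376R arrays, brightness and line cannot be told apart in this comparison. A call lost with the covariate does not show which of them a change goes with. The part of array brightness in single results was not tested further.

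**Figure D1:**
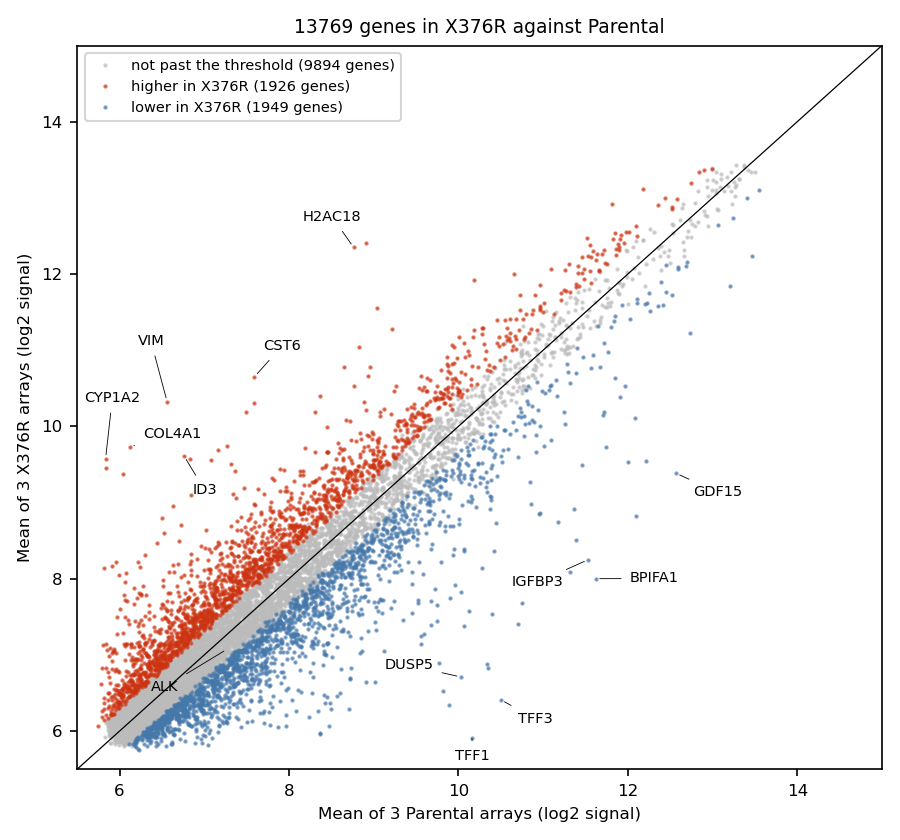
Mean log2 signal of the 3 X376R arrays against that of the 3 Parental arrays for 13769 genes, with genes past an adjusted p of 0.05 in red (1926 higher) and blue (1949 lower) and the diagonal marking no difference. Most genes lie along the diagonal, VIM, COL4A1 and H2AC18 lie far above it, TFF1, TFF3 and GDF15 far below it, and ALK lies near it.

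The transcript of the inhibited kinase itself differed little. ALK read 7.23, 7.37 and 7.22 on the Parental arrays and 7.06, 6.93 and 7.24 on the X376R arrays, a difference of -0.20 (SE 0.12) that missed the threshold (adjusted p = 0.251) with overlapping arrays. With arrays centred on their median it was called lower, at -0.61 (adjusted p = 0.023). PF1066R, whose comparison shares the Parental arrays, read 9.44, 9.19 and 9.16, and X376R lay 2.19 below PF1066R on the log2 scale (adjusted p = 6.75e-10). EML4, the fusion partner, read 9.96, 9.70 and 9.65 on the Parental arrays and 9.10, 9.51 and 9.28 on the X376R arrays and fell by 0.47 (adjusted p = 0.0102). That call was lost in 2 of the fits without 1 array, at adjusted p = 0.061 without Parental replicate 1, 0.0595 without X376R replicate 1, and with array brightness as a covariate (0.147). The tables do not say which part of a transcript a probe reads, so fusion and intact transcripts cannot be told apart.

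Among the receptor kinases known to substitute for ALK, 2 moved up and 1 down by about 1 unit or more. AXL, the receptor for GAS6, read 5.89, 5.76 and 6.13 on the Parental arrays and 7.11, 7.11 and 6.92 on the X376R arrays. Its X376R arrays all lay higher, the change was 1.12 (SE 0.12, adjusted p = 1.47e-06), and only 1 of 3 Parental arrays was above background. A second AXL probe gave 1.12. MET, the receptor for hepatocyte growth factor, read 8.20, 8.64 and 8.94 on the Parental arrays and 7.33, 7.38 and 7.63 on the X376R arrays, so that every Parental array lay above every X376R array. It fell by 1.15 (SE 0.15, adjusted p = 1.86e-05), a call that was lost with array brightness as a covariate (-0.83, adjusted p = 0.0762). In PF1066R the MET change was -1.08, and the 2 resistant lines did not differ past the threshold (difference -0.07, adjusted p = 0.819). ERBB2 read 8.28, 7.95 and 8.18 on the Parental arrays and 8.84, 8.99 and 9.35 on the X376R arrays and rose by 0.92 (adjusted p = 5.89e-05), which with arrays centred on their median became 0.32 and missed the threshold (adjusted p = 0.25).

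EGFR read 6.93, 7.08 and 7.12 on the Parental arrays and 6.89, 6.71 and 6.93 on the X376R arrays, a difference of -0.20 past no threshold (adjusted p = 0.223). ERBB3, the partner of ERBB2, differed by -0.16 (adjusted p = 0.385). KIT, the stem cell factor receptor, rose by 0.49 (SE 0.12, adjusted p = 0.00393) from 6.18, 6.17 and 6.35 to 6.77, 6.52 and 6.88. IGF1R was near background in Parental and below it on all X376R arrays, with a difference of -0.15 (adjusted p = 0.312). The insulin receptor substrates were IRS1, which rose by 0.39 (adjusted p = 0.0224) and lost the call in 3 of 6 fits without 1 array, and IRS2, which differed by 0.06 (adjusted p = 0.798). EPHA2, an ephrin receptor, fell by 0.78. In all, 4 of 17 measured receptor kinases were higher and 3 lower, against 14.0% and 14.2% of all genes. Their median was -0.15 against -0.01 over all genes. KIT missed the threshold with arrays centred on their median (0.31, adjusted p = 0.11) and with array brightness as a covariate (0.0854), IRS1 missed it with the former (0.552), and EGFR and ERBB3 were called lower there, at -0.56 and -0.76.

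**Figure D2:**
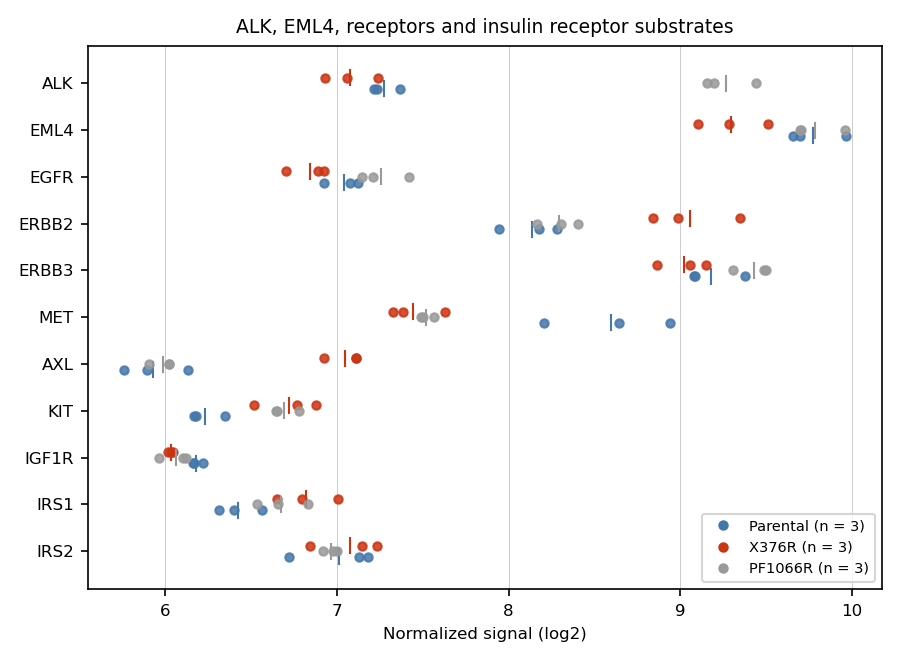
Normalized log2 signal of ALK, EML4, other receptor kinases and the insulin receptor substrates on each array, with Parental in blue, X376R in red and PF1066R in grey and a vertical bar at the mean of 3 arrays. AXL and ERBB2 lie higher and MET lower in X376R than in Parental without overlap, while ALK overlaps between these 2 lines.

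Of the ligands of such receptors, 6 of 22 measured genes were higher and 2 lower, against 14.0% and 14.2% of all genes. Their median was 0.10. GAS6, the AXL ligand, read 6.0, 6.09 and 6.09 on the Parental arrays and 7.95, 8.09 and 7.81 on the X376R arrays, a rise of 1.89 (SE 0.11) with no overlap between lines and 1 of 3 Parental arrays above background. EFNA1, an ephrin ligand of EPHA receptors, rose by 1.74 (SE 0.13), from 9.03, 8.96 and 8.78 to 10.49, 10.78 and 10.72. VEGFC, a lymphatic growth factor, rose by 1.61 and PDGFC, a platelet-derived growth factor, by 1.15. VEGFC was above background on 1 of 3 Parental arrays. HBEGF, an EGFR ligand, rose by 0.96 and KITLG, the KIT ligand, by 0.60, while VEGFA fell by 0.40. FGF19 was below background on all X376R arrays and fell at least 1.48-fold. VEGFA missed the threshold without Parental replicate 1 (adjusted p = 0.0588), without Parental replicate 3 (0.0635) and with array brightness as a covariate (0.668), where KITLG missed it too (0.19). FGF19 was above background only on the 3 Parental arrays, so that without any of them it left the filter and was not tested. With arrays centred on their median, the ligand median became -0.03. HBEGF, KITLG, FGF19 and VEGFA were singled out after their values were seen.

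Binding proteins of insulin-like growth factors split. IGFBP3, the main carrier of these factors in serum, read 11.69, 11.69 and 11.21 on the Parental arrays and 8.33, 8.58 and 7.84 on the X376R arrays and fell 9.72-fold, with a second probe at -2.79. IGFBP7 read 6.16, 6.29 and 6.26 on the Parental arrays and 8.11, 8.29 and 8.07 on the X376R arrays and rose 3.79-fold (adjusted p = 1.05e-09). GRB10, an adaptor that restrains insulin receptor signalling, fell by 1.0 on the log2 scale and IGF2BP2, an RNA-binding protein, by 0.97. Of 14 measured genes in this group 3 were higher and 4 lower, against 14.0% and 14.2% of all genes. GRB10 missed the threshold with array brightness as a covariate (adjusted p = 0.0659).

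Genes of the ERK pathway's own feedback were lower in X376R cells almost throughout. Of 25 measured ERK feedback and target genes 21 fell and 1 rose, against 14.2% lower and 14.0% higher among all genes, and the group's median change was -0.91. Of the 25, 3 were below background on all X376R arrays and passed the filter only through the other lines. Among genes above background on all 9 arrays 17 fell and 0 rose. DUSP5, a nuclear phosphatase that removes the activating phosphates from ERK, read 10.24, 9.77 and 10.08 on the Parental arrays and 6.67, 6.55 and 6.91 on the X376R arrays. It fell 9.98-fold (log2 change -3.32, SE 0.14, adjusted p = 3.42e-11). DUSP6, its cytoplasmic counterpart, read 11.06, 11.21 and 11.24 on the Parental arrays and 8.82, 8.89 and 8.51 on the X376R arrays, a change of -2.44 (SE 0.13, adjusted p = 3.17e-10), and a second DUSP6 probe gave -2.53. PHLDA1 read 10.83, 10.73 and 10.70 on the Parental arrays and 7.68, 7.98 and 7.40 on the X376R arrays and fell 8.38-fold (second probe -1.66). EMP1, a membrane protein, fell 4.21-fold.

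The remaining feedback regulators fell by less. ERRFI1, an inhibitor of EGFR family kinases, changed by -1.96. DUSP4 was below background on all X376R arrays and fell at least 1.68-fold. The Sprouty genes SPRY4, SPRY1 and SPRY2 changed by -1.02, -0.99 and -0.45, and the Spred genes SPRED2 and SPRED1 by -0.61 and -0.43. Of the transcription factors that ERK induces, ETV5 changed by -1.25, ETV4 by -0.65, EGR1 by -0.62 and MYC by -0.65, all past the threshold, and FOSL1, below background on all X376R arrays, fell at least 1.58-fold. CCND1, the cyclin that ERK signalling induces in early cell cycle entry, read 12.37, 12.29 and 12.21 on the Parental arrays and 12.01, 12.33 and 12.27 on the X376R arrays, a difference of -0.09 that missed the threshold (adjusted p = 0.686). EPHA4 rose by 0.44. With array brightness as a covariate 13 of the 25 were lower and 0 higher, and SPRY1, SPRY2, SPRED1, SPRED2, EGR1, MYC and EPHA4 missed the threshold (adjusted p from 0.0796 for MYC to 0.939 for SPRED1). SPRED1 also missed it in 3 of 6 fits without 1 array and SPRY2 in 1, and CCND1 was called lower, at -0.86, with arrays centred on their median. In this paragraph all genes were chosen after their values were seen.

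Several mesenchymal genes rose in X376R cells, VIM the most. VIM, the intermediate filament of mesenchymal cells, read 6.61, 6.58 and 6.49 on the Parental arrays and 10.29, 10.43 and 10.24 on the X376R arrays. The arrays of the 2 lines did not overlap, as the rule that chose VIM required. The rise was 13.6-fold (log2 change 3.76, SE 0.11, adjusted p = 2.95e-13), with a second probe at 3.50. TPM1, a tropomyosin of stress fibres, read 7.05, 7.32 and 7.13 on the Parental arrays and 9.75, 9.61 and 9.71 on the X376R arrays and rose 5.76-fold, but of its 2 other probes 1 gave 2.49 and 1 gave 0.05. TGFBI, a matrix protein induced by TGF-beta, read 8.74, 8.86 and 8.88 on the Parental arrays and 10.82, 11.23 and 11.07 on the X376R arrays, a rise of 2.22 (SE 0.13, adjusted p = 2.09e-09). TAGLN, a smooth-muscle actin-binding protein, was below background on every Parental array and 8.13, 8.21 and 7.80 in X376R, which makes the rise at least 3.94-fold. TAGLN was above background only on the 3 X376R arrays, so that without any of them it left the filter and was not tested. LGALS1, galectin-1, rose by 1.83 and CDH2, N-cadherin, by 1.80. S100A4, often listed with mesenchymal genes, went the other way, from 9.49, 9.84 and 9.83 to 7.93, 7.98 and 7.67 (log2 change -1.86, SE 0.12). Of 16 measured genes 7 rose and 1 fell, with a median of 0.21, and among genes above background on all 9 arrays 4 rose and 1 fell.

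The transcription factors of the epithelial-mesenchymal transition moved little. SNAI2 rose by 0.50 (adjusted p = 0.0113), a call lost in 2 of 6 fits without 1 array (adjusted p up to 0.0696), with arrays centred on their median (0.0689) and with array brightness as a covariate (0.145), while ZEB2 differed by 0.15 (adjusted p = 0.405), TWIST1 by 0.09 (0.649) and TWIST2 by -0.21 (0.257). FN1, fibronectin, differed by 0.12 (adjusted p = 0.486) and SPARC by 0.01 (0.966). FN1 left the filter in 2 of 6 fits without 1 array and SPARC in 1, so both were above background on few arrays. SNAI2, ZEB2 and TWIST2 were not above background on every array either. The small differences of ZEB2, TWIST2, FN1 and SPARC thus do not show that these transcripts were unchanged. LGALS1, CDH2 and the genes of this paragraph were singled out after their values were seen.

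CDH1, the E-cadherin of epithelial junctions, read 10.27, 9.94 and 10.15 on the Parental arrays and 9.40, 9.16 and 9.17 on the X376R arrays. The lines did not overlap and the change was -0.88 (SE 0.12, adjusted p = 3.33e-05), which with array brightness as a covariate became -0.66 and missed the threshold (adjusted p = 0.086). CLDN10, a tight-junction claudin, read 11.18, 11.36 and 11.42 on the Parental arrays and 8.07, 8.0 and 8.21 on the X376R arrays and fell 9.36-fold, with a second probe at -3.00. CLDN1, another claudin, rose by 1.0 and KRT7, a keratin of simple epithelia, by 1.09, both calls that missed the threshold with arrays centred on their median (adjusted p = 0.20 and 0.14), and KRT7 also missed it with array brightness as a covariate (0.0526). EPCAM, the epithelial adhesion molecule, read 11.62, 11.97 and 11.75 on the Parental arrays and 11.87, 11.98 and 11.60 on the X376R arrays, a difference of 0.04 (adjusted p = 0.894). KRT8 differed by -0.08 (adjusted p = 0.692) and KRT19 by -0.14 (0.543), but with arrays centred on their median all 3 were called lower, at -0.70, -0.75 and -0.84. Of 27 measured junction and keratin genes 3 rose and 7 fell, against 14.0% and 14.2% of all genes. With arrays centred on their median 0 of them rose and 15 fell.

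Marker lists of cell types were read in both lines. The 8 epithelial markers were all measured, with 1 higher, 3 lower and a median of -0.24. With arrays centred on their median 0 were higher and 7 lower (median -0.92), and with array brightness as a covariate 0 and 0. Among the 3 lower markers ELF3 lost its call in 5 alternatives and KRT18 in 3. Of 6 measured lung adenocarcinoma markers 3 rose, among them NKX2-1, the lineage factor of distal lung, from 7.76, 8.07 and 8.03 to 9.04, 9.30 and 9.12 (log2 change 1.20, SE 0.12). With arrays centred on their median 1 of these markers was higher, and with array brightness as a covariate 1, NKX2-1 in both. NAPSA, a surfactant-processing protease, was above background on 1 Parental and 3 X376R arrays, and SFTPB, a surfactant protein, on 2 and 1, so these defining markers were at or near background. Of 7 measured fibroblast markers 2 rose, COL1A1 by 0.83 and LUM, below background on all Parental arrays, at least 1.39-fold. LUM missed the threshold without Parental replicate 3 (adjusted p = 0.0906), without X376R replicate 3 (0.109), with arrays centred on their median (0.0643) and with array brightness as a covariate (0.386), where COL1A1 missed it too (0.0893). COL3A1 reached background on 0 Parental arrays and 1 X376R array, DCN on 1 and 1 and POSTN on 3 and 0. Of the endothelial markers CDH5, VE-cadherin, rose from 5.82, 5.90 and 6.01 to 8.22, 8.05 and 8.22, while PECAM1 differed by -0.06 (adjusted p = 0.741) and TEK by -0.03 (0.899). Of 3 measured blood markers 0 passed in limma, with adjusted p of 0.744 for PTPRC, 0.761 for CD14 and 0.161 for CD68. PTPRC left the filter in 2 of 6 fits without 1 array and TEK in 1, so both were above background on few arrays. CD68 passed in 2 alternatives, at -0.41 as the mean of its probes and at 0.46 without Parental replicate 1. In bulk RNA fewer cells of a type and less RNA per cell cannot be told apart. The part of other cell types in the rises of VIM and the collagens was not tested.

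**Figure D3:**
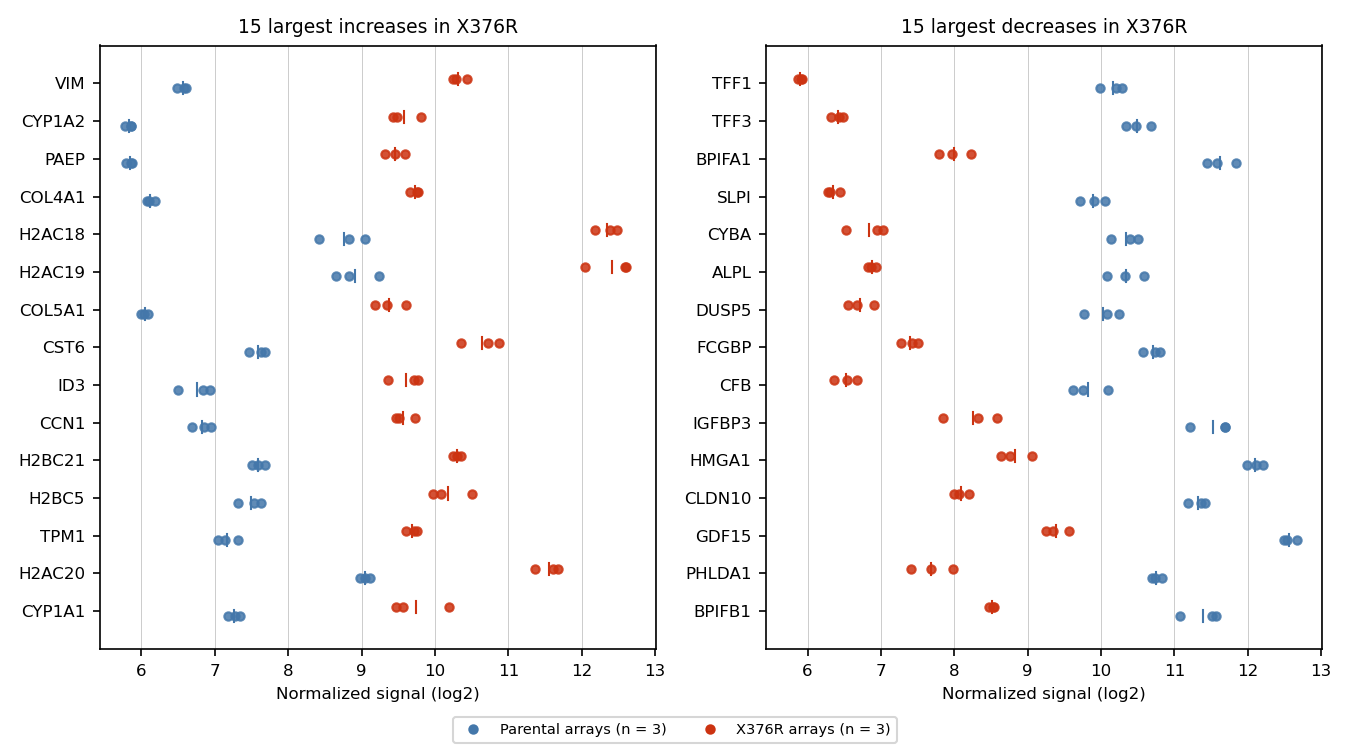
Normalized log2 signal of the 15 genes with the largest increases (left) and the 15 with the largest decreases (right) on the 3 Parental (blue) and 3 X376R (red) arrays, with a vertical bar at each mean. The arrays of the 2 lines are separate for every gene shown, as the rule that chose them required.

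Basement membrane and fibrillar collagens were among the largest rises. COL4A1, a chain of the network collagen of basement membranes, read 6.19, 6.10 and 6.08 on the Parental arrays and 9.66, 9.77 and 9.76 on the X376R arrays, a rise of 3.61 (SE 0.10, adjusted p = 2.07e-13) or 12.2-fold, with 2 of 3 Parental arrays above background. Its partner chain COL4A2 read 6.07, 6.07 and 6.01 on the Parental arrays and 7.59, 7.96 and 7.81 on the X376R arrays, a rise of 1.73 (SE 0.14, adjusted p = 5.76e-08). Only 1 of 3 Parental arrays was above background for COL4A2. COL5A1, which nucleates collagen fibrils, read 6.04, 6.09 and 6.0 on the Parental arrays and 9.18, 9.61 and 9.35 on the X376R arrays and rose 10.1-fold, with 1 of 3 Parental arrays above background. Groups did not overlap for any of the 3 genes, which the rule that chose COL4A1 and COL5A1 required.

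COL4A1 and COL4A2 are transcribed away from each other, and the window that holds the start sites of both is shown because both rose. In RefSeq on GRCh38.p14 the starts lie 127 bases apart and the windows from 250 bases before to 50 after each start overlap by 226 bases. The COL4A2 window is chr13:110307034-110307333 on the plus strand, written 5′ to 3′ with a CCAAT box in capitals.
COL4A2: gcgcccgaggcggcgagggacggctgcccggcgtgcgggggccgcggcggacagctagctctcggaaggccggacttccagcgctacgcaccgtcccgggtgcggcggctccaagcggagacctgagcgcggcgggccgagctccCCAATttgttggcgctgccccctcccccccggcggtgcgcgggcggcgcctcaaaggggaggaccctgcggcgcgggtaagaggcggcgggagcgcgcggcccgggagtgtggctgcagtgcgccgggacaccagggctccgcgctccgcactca
CCAAT or its reverse complement ATTGG occurred in 34.6% of 35116 RefSeq promoter windows of 300 bases, so a match describes the sequence only.

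Other matrix genes were mixed. P4HA2, a prolyl hydroxylase that stabilizes collagen, rose by 1.54 (other probes 0.08 to 1.54), and the collagen chaperone SERPINH1 by 0.86. The laminin chains LAMB2 and LAMB1 rose by 1.40 and 1.06, whereas LAMB3 and LAMA5 fell by 1.20 and 0.75. Of 26 measured genes 10 rose and 3 fell, with a median of 0.29, and among genes above background on all 9 arrays 5 rose and 3 fell. SERPINH1 and the laminins were singled out after their values were seen.

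Caveolar coat genes rose, while integrins were divided. CAV1, the coat protein of caveolae, read 6.29, 6.21 and 6.14 on the Parental arrays and 8.25, 8.15 and 8.25 on the X376R arrays, a rise of 2.0 (SE 0.11, adjusted p = 4.99e-10), with a second probe at 0.51. CAVIN1, which stabilizes the coat, read 6.08, 6.20 and 6.24 on the Parental arrays and 8.06, 7.82 and 7.73 on the X376R arrays, a rise of 1.70 (SE 0.11), and CAV2 rose by 0.94. CAVIN1 was above background on 2 of 3 Parental arrays. ITGB5, an integrin subunit that pairs with ITGAV, read 10.01, 10.07 and 10.12 on the Parental arrays and 8.10, 8.54 and 8.44 on the X376R arrays and fell by 1.70, although its 4 other probes spread from -1.79 to 0.09. ITGA2, a collagen-binding subunit, fell by 1.17, and ITGA3, a laminin-binding one, rose by 0.78. In this group 6 of 19 measured genes rose and 3 fell, against 14.0% and 14.2% of all genes. The median of 0.09 turned to -0.27 when arrays were centred on their median. ITGA3 missed the threshold with arrays centred on their median (0.17, adjusted p = 0.519) and with array brightness as a covariate (0.359).

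Targets of the co-activator YAP, which carries signals from cell contact and tension to the nucleus, were higher more often than lower. Of 14 measured genes 7 rose and 2 fell, with a median of 0.37, and among genes above background on all 9 arrays 4 rose and 2 fell, with a median of 0.02. CCN1, a secreted matrix protein, read 6.86, 6.69 and 6.94 on the Parental arrays and 9.51, 9.46 and 9.73 on the X376R arrays, a rise of 2.74 (SE 0.12, adjusted p = 3.45e-11). CCN2, its relative, rose by 1.11 and ANKRD1 by 0.43, while NT5E, the surface enzyme CD73, fell by 1.62. In this list AXL and IGFBP3 are counted again. CCN2 missed the threshold with arrays centred on their median (0.43, adjusted p = 0.163), and ANKRD1 missed it in 3 of 6 fits without 1 array (adjusted p up to 0.0809) and with array brightness as a covariate (0.452).

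Genes that respond to TGF-beta and BMP were split. ID3, an inhibitor of basic helix-loop-helix factors, read 6.50, 6.94 and 6.84 on the Parental arrays and 9.71, 9.77 and 9.36 on the X376R arrays, a rise of 2.85 (SE 0.13, adjusted p = 8.93e-11), and its relatives ID1 and ID2 rose by 0.95 and 0.45. PMEPA1, a feedback inhibitor of TGF-beta signalling, read 9.29, 9.17 and 8.89 on the Parental arrays and 10.09, 10.38 and 10.20 on the X376R arrays and rose by 1.10. BAMBI, a decoy receptor of the same pathway, read 8.37, 8.58 and 8.73 on the Parental arrays and 6.61, 6.33 and 6.44 on the X376R arrays and fell by 2.10. HEY1, also a Notch target, was below background on all X376R arrays and fell at least 3.50-fold, while a second probe missed the threshold at -0.29. Of 16 measured genes 7 rose and 3 fell, with a median of 0.09 that became -0.02 when arrays were centred on their median. CCN2, ANKRD1, CAV2, ITGA3, ID1 and ID2 were singled out after their values were seen. ID1 and ID2 missed the threshold with arrays centred on their median (adjusted p = 0.293 and 0.922), and ID2 also with array brightness as a covariate (0.55).

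Mucus genes showed the largest falls. TFF1, a trefoil peptide that is secreted with mucins, read 10.21, 10.28 and 9.99 on the Parental arrays and 5.92, 5.86 and 5.92 on the X376R arrays. It lay below background on all X376R arrays, so the fall was at least 16.1-fold (adjusted p = 9.07e-14). TFF3, another trefoil peptide, read 10.68, 10.34 and 10.47 on the Parental arrays and 6.43, 6.48 and 6.32 on the X376R arrays, a change of -4.09 (SE 0.14, adjusted p = 1.57e-12) or 17.0-fold. FCGBP, a mucin-bound protein of goblet cells, read 10.73, 10.57 and 10.81 on the Parental arrays and 7.50, 7.43 and 7.28 on the X376R arrays and fell 9.87-fold. Every Parental array lay above every X376R array in all 3 genes, as the rule that chose them required.

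MUC4, a membrane mucin, read 10.53, 10.31 and 10.33 on the Parental arrays and 7.65, 7.80 and 7.17 on the X376R arrays and fell 7.20-fold, although its 2 other probes gave -0.09 and -0.06. AGR2, a disulfide isomerase needed for mucin folding, read 11.98, 11.92 and 12.09 on the Parental arrays and 9.87, 9.18 and 9.55 on the X376R arrays, a change of -2.47 (SE 0.15, adjusted p = 1.96e-09), with a second probe at -2.42. MUC2, a gel-forming mucin, was below background on all X376R arrays and fell at least 4.98-fold. The mucus-cell transcription factor SPDEF changed by -1.81 and GCNT3, which branches mucin sugars, by -2.05. MUC1 rose by 0.66 (adjusted p = 0.00131), a change that became -0.01 with arrays centred on their median and missed the threshold with array brightness as a covariate (0.583). Of 16 measured genes 10 fell and 1 rose, with a median of -1.35. Of the 16, 4 were below background on all X376R arrays and passed the filter only through the other lines. Among genes above background on all 9 arrays 7 fell and 1 rose, with a median of -2.05. With no filter the median was -0.455, so its size rested on the filter. MUC2, SPDEF and GCNT3 were singled out after their values were seen.

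Some secreted proteins of the airway lining also fell. BPIFA1, an antimicrobial protein of the upper airway, read 11.44, 11.84 and 11.58 on the Parental arrays and 8.23, 7.97 and 7.79 on the X376R arrays and fell 12.3-fold. BPIFB1, of the same gene cluster, read 11.57, 11.51 and 11.08 on the Parental arrays and 8.55, 8.53 and 8.47 on the X376R arrays, a change of -2.88 (SE 0.13, adjusted p = 3.46e-11). CFB, factor B of the alternative complement pathway, fell 9.86-fold, from 10.10, 9.76 and 9.61 to 6.36, 6.53 and 6.67. PAEP, a lipocalin known from the endometrium, was below background on every Parental array and read 9.45, 9.60 and 9.32 in X376R, a rise of at least 10.5-fold (second probe 2.73). Of 28 measured genes 8 fell and 3 rose.

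Protease inhibitors moved both ways, with 9 of 21 measured genes lower and 6 higher. SLPI, an inhibitor of neutrophil elastase in airway fluid, read 10.06, 9.71 and 9.90 on the Parental arrays and 6.28, 6.31 and 6.45 on the X376R arrays and fell 11.7-fold. SERPINA3 read 9.37, 10.24 and 9.69 on the Parental arrays and 6.81, 6.84 and 7.03 on the X376R arrays and fell 7.33-fold, and SERPINE2 fell 2.33-fold. CST6, cystatin M, read 7.46, 7.63 and 7.68 on the Parental arrays and 10.72, 10.87 and 10.35 on the X376R arrays, a rise of 3.06 (SE 0.14, adjusted p = 3.92e-11). Among S100 proteins, small calcium-binding proteins, S100P, S100A9 and S100A2 fell 2.83-fold, 2.58-fold and 2.08-fold. Of 15 measured S100 genes 4 rose and 5 fell, against 14.0% and 14.2% of all genes. ALPL, the tissue-nonspecific alkaline phosphatase, read 10.33, 10.59 and 10.08 on the Parental arrays and 6.82, 6.94 and 6.86 on the X376R arrays and fell by 3.46 on the log2 scale.

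Lineage and stem cell factors were also divided, 4 of 21 measured genes higher and 7 lower, against 14.0% and 14.2% of all genes. HOPX, a homeobox protein of alveolar type 1 cells, was below background on every Parental array and read 8.07, 8.19 and 8.16 in X376R, at least 4.20-fold higher, but a second probe gave 0.28 and was not called. SOX2, a factor of airway progenitors, read 7.92, 7.98 and 7.93 on the Parental arrays and 9.42, 9.14 and 9.71 on the X376R arrays, a rise of 1.48 (SE 0.13, adjusted p = 1.35e-07), with a second probe at 1.16. CD44, the hyaluronan receptor, read 7.66, 7.61 and 7.75 on the Parental arrays and 8.75, 8.72 and 9.14 on the X376R arrays and rose by 1.20, with other probes from -0.08 to 0.47. HMGA1, a chromatin protein of embryonic and tumour cells, read 12.21, 11.99 and 12.11 on the Parental arrays and 9.06, 8.77 and 8.64 on the X376R arrays and fell 9.71-fold, while its second probe gave -0.52. FOXA2 differed by 0.24 (adjusted p = 0.12), and it, EPCAM, KRT8, KRT19, NAPSA and SFTPB were added after their values were seen.

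The cytochromes induced by the aryl hydrocarbon receptor, a ligand-activated transcription factor, rose. CYP1A2 was below background on every Parental array at 5.78, 5.86 and 5.86 and read 9.43, 9.81 and 9.49 in X376R, at least 11.3-fold higher (adjusted p = 4.82e-13). CYP1A1 read 7.34, 7.17 and 7.27 on the Parental arrays and 9.47, 9.56 and 10.19 on the X376R arrays and rose 5.58-fold, and CYP1B1 read 7.93, 7.77 and 7.77 on the Parental arrays and 9.37, 9.26 and 9.28 on the X376R arrays and rose 2.79-fold. No X376R array overlapped a Parental array in these 3 genes, which the rule that chose CYP1A1 and CYP1A2 required. In PF1066R, CYP1A1 differed from Parental by 2.01, CYP1A2 by 0.85 and CYP1B1 by 0.01, and the X376R values lay above the PF1066R values by 0.48 (adjusted p = 0.041), 2.90 (9.7e-12) and 1.47 (9.37e-08).

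Other genes of the receptor were divided. ALDH3A1, an aldehyde dehydrogenase that the receptor induces in several tissues, read 6.97, 7.18 and 7.11 on the Parental arrays and 6.42, 6.24 and 5.95 on the X376R arrays and fell by 0.88 (adjusted p = 3.12e-05). TIPARP, which limits the receptor's activity, fell by 0.39. NQO1, a quinone reductase, read 10.78, 10.56 and 10.82 on the Parental arrays and 10.39, 10.41 and 10.75 on the X376R arrays, a difference of -0.20 that missed the threshold (adjusted p = 0.333). AHR, the receptor itself, gave 0.36 (adjusted p = 0.0181) by the brighter of its probes and -0.42 by the other, and the sign turned, to -0.30, with arrays centred on their median. In all 4 of 9 measured genes rose and 2 fell, and TIPARP, NQO1 and AHR were chosen after their values were seen. TIPARP missed the threshold in 4 of 6 fits without 1 array (adjusted p up to 0.172) and AHR in 2 (up to 0.0868). Both missed it with array brightness as a covariate (0.726 and 0.418) and with an offset of 16 (0.0853 and 0.106). TIPARP also missed it with no filter (0.0516) and in the authors' log2 table (0.0817). NQO1 was called lower, at -0.86, with arrays centred on their median.

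Redox and drug-handling families showed no common direction after quantile normalization. Of 20 measured NRF2 targets and aldo-keto reductases 3 rose and 6 fell, against 14.0% and 14.2% of all genes. With arrays centred on their median 0 rose and 12 fell. SRXN1, sulfiredoxin, read 9.12, 8.85 and 9.05 on the Parental arrays and 7.63, 7.26 and 8.20 on the X376R arrays and fell by 1.31, and SLC7A11, the cystine transporter, was below background on all X376R arrays and fell at least 2.04-fold. GSR, glutathione reductase, fell by 0.98. Among aldehyde dehydrogenases 4 of 17 rose and 4 fell, and with arrays centred on their median 1 rose and 8 fell. ALDH2, the mitochondrial enzyme that clears acetaldehyde, read 8.88, 8.65 and 8.59 on the Parental arrays and 6.38, 6.21 and 6.27 on the X376R arrays and fell 5.36-fold, while ALDH3B1 and ALDH3A2 rose by 1.22 and 1.22. Of 21 measured ABC transporters 2 rose and 4 fell, and with arrays centred on their median 1 rose and 8 fell. The drug exporter ABCB1 differed by 0.05 (adjusted p = 0.805). ABCB1 left the filter in 3 of 6 fits without 1 array, so it was above background on few arrays. ABCC3, an exporter of conjugates, fell by 1.09 and ABCC5 rose by 0.68. ABCB1 was chosen after its value was seen. ALDH3A2 missed the threshold with arrays centred on their median (adjusted p = 0.0754) and ABCC5 with array brightness as a covariate (0.236).

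Histone genes were higher in X376R cells. Of 37 measured genes 21 rose and 2 fell, a median of 0.46. Because 6 of them were below background on all Parental arrays and passed the filter only through the other lines, the count among genes above background on all 9 arrays is also given, 14 higher and 2 lower. With arrays centred on their median 15 rose and 5 fell. H2AC18 read 8.41, 8.83 and 9.04 on the Parental arrays and 12.18, 12.39 and 12.48 on the X376R arrays and H2AC19 read 8.65, 9.24 and 8.83 on the Parental arrays and 12.60, 12.59 and 12.04 on the X376R arrays, rises of 3.59 (SE 0.16) and 3.50 (SE 0.16). H2AC18 and H2AC19 hardly differ in sequence, and it is uncertain which of the pair a probe read, and other replication-dependent histone genes also share much sequence.

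H2BC21 and H2AC20 lie head to head in the histone cluster of chromosome 1. H2AC20 read 8.97, 9.11 and 9.05 on the Parental arrays and 11.36, 11.68 and 11.61 on the X376R arrays, a rise of 2.51 (SE 0.11, adjusted p = 5.16e-11). H2BC21 read 7.58, 7.50 and 7.69 on the Parental arrays and 10.36, 10.25 and 10.30 on the X376R arrays, a rise of 2.71 (SE 0.11, adjusted p = 1.39e-11). Arrays of the 2 lines were separate in both genes, as the rule that chose them required. In RefSeq on GRCh38.p14 their starts lie 236 bases apart, and the window of the H2AC20 start, chr1:149886668-149886967 on the plus strand, overlaps that of H2BC21 by 265 bases. It is shown as the stretch that both genes share, 5′ to 3′, with CCAAT and its reverse complement ATTGG in capitals.
H2AC20: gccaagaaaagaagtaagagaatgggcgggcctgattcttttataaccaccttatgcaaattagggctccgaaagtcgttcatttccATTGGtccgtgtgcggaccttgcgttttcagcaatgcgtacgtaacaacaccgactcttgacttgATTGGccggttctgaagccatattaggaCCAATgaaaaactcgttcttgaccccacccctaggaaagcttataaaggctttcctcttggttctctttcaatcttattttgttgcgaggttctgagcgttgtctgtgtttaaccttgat
The stretch held 3 such boxes. Of 36 histone genes with a window 29 held at least 1, against 39.7% of 27305 genes, a description that says nothing about binding.

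The rises reached outside that cluster. H2BC5, in the large histone cluster of chromosome 6, read 7.31, 7.62 and 7.54 on the Parental arrays and 10.08, 10.50 and 9.97 on the X376R arrays and rose 6.47-fold (second probe 2.24). H1-2, a linker histone, rose by 2.13 and H2AJ, a replication-independent variant, by 2.06. H3-3A and H3-3B, which encode the replacement variant of histone H3, rose by 0.56 and 0.66. H1-10, a linker histone, fell by 0.86 and MACROH2A2 by 0.71. H2AX and H2AZ1 differed by -0.37 (adjusted p = 0.082) and -0.11 (0.572). The list members named here other than H2BC5 were chosen after their values were seen. H3-3A, H3-3B and MACROH2A2 missed the threshold with array brightness as a covariate (adjusted p = 0.149, 0.35 and 0.54). With arrays centred on their median H3-3A turned to -0.16 and H3-3B was near 0 (adjusted p = 0.996), and H2AX and H2AZ1 were called lower, at -0.91 and -0.88. H2AX was also called lower with only the 6 arrays of X376R and Parental (adjusted p = 0.0341).

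Most measured genes of DNA replication were also higher. Of 37 measured genes 24 were higher and 1 lower, with a median of 0.45. That count rested on the scaling, since with arrays centred on their median 4 rose and 4 fell, the median becoming 0.03 while that of all genes was -0.19, and with array brightness as a covariate 8 rose and 0 fell. TYMS, thymidylate synthase, read 8.68, 8.70 and 8.66 on the Parental arrays and 10.02, 10.15 and 10.07 on the X376R arrays, a rise of 1.40 (SE 0.12, adjusted p = 2.08e-07). Of the replicative helicase, MCM2 read 7.25, 7.17 and 6.94 on the Parental arrays and 8.31, 8.53 and 8.36 on the X376R arrays and MCM5 read 7.41, 7.64 and 7.57 on the Parental arrays and 8.80, 8.94 and 8.66 on the X376R arrays, rises of 1.27 and 1.26, and MCM3, MCM4, MCM6 and MCM7 rose by 0.65, 0.72, 0.75 and 0.53. CDC45, which completes the helicase, rose by 1.18. SLBP, which processes histone mRNA, rose by 0.66, and PCNA, the polymerase clamp, by 0.66. MCM3, MCM4, MCM6, MCM7, SLBP and PCNA all missed the threshold with arrays centred on their median, where MCM7 was -0.13 and PCNA -0.01, and all but MCM6 missed it with array brightness as a covariate (adjusted p from 0.0968 for MCM3 to 0.297 for PCNA). MCM7 also missed it in 2 of 6 fits without 1 array (adjusted p up to 0.0531) and as the mean of its probes (0.193).

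Mitotic genes moved less. Of 40 measured genes 9 rose and 3 fell, against 14.0% and 14.2% of all genes. The median of 0.08 became -0.40 with arrays centred on their median. NDC80, a kinetochore protein, rose by 0.67, ANLN, of the cleavage furrow, by 0.65, and CKS1B, a partner of cyclin-dependent kinases, fell by 0.57. MKI67, the proliferation marker, differed by 0.19 (adjusted p = 0.266) and CDK1 by -0.10 (0.683). The MCM genes other than MCM2 and MCM5, SLBP, PCNA, MKI67 and CDK1 were chosen after their values were seen. NDC80 and ANLN missed the threshold with arrays centred on their median (0.21 and 0.14, adjusted p = 0.469 and 0.638), where CDK1 was called lower at -0.71, and ANLN also with array brightness as a covariate (0.114).

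Targets of p53 were not of one direction, with 8 of 22 measured genes higher and 4 lower, against 14.0% and 14.2% of all genes. GDF15, a stress-induced cytokine, read 12.49, 12.67 and 12.54 on the Parental arrays and 9.25, 9.56 and 9.34 on the X376R arrays and fell 9.08-fold (adjusted p = 8.01e-12). TNFRSF10B, a death receptor for TRAIL, read 9.25, 9.62 and 9.81 on the Parental arrays and 7.28, 7.25 and 7.22 on the X376R arrays and fell 4.95-fold, while its second probe gave -0.21. TP53I3, an oxidoreductase, read 6.56, 7.10 and 6.88 on the Parental arrays and 8.97, 9.49 and 8.84 on the X376R arrays and rose 4.77-fold. BAX, which opens the mitochondrial outer membrane, rose by 1.0 (second probe 0.06), and CDKN1A, the inhibitor p21, by 0.46. In the BCL2 family and death pathway 3 of 26 rose and 4 fell, near the 14.0% and 14.2% of all genes. With arrays centred on their median 1 rose and 11 fell. BIK, a pro-apoptotic member, read 8.75, 8.64 and 8.71 on the Parental arrays and 7.38, 7.32 and 7.19 on the X376R arrays and fell by 1.40. BCL2L11, the BIM gene, differed by 0.25 (adjusted p = 0.113) and MCL1 by -0.35 (0.232). CDKN1A, BCL2L11 and MCL1 were chosen after their values were seen. CDKN1A turned to -0.19 with arrays centred on their median and missed the threshold with array brightness as a covariate (adjusted p = 0.555). MCL1 was called lower with that centring, at -1.06, as the mean of its probes, at -0.64, and without X376R replicate 3, at -0.67.

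**Figure D4:**
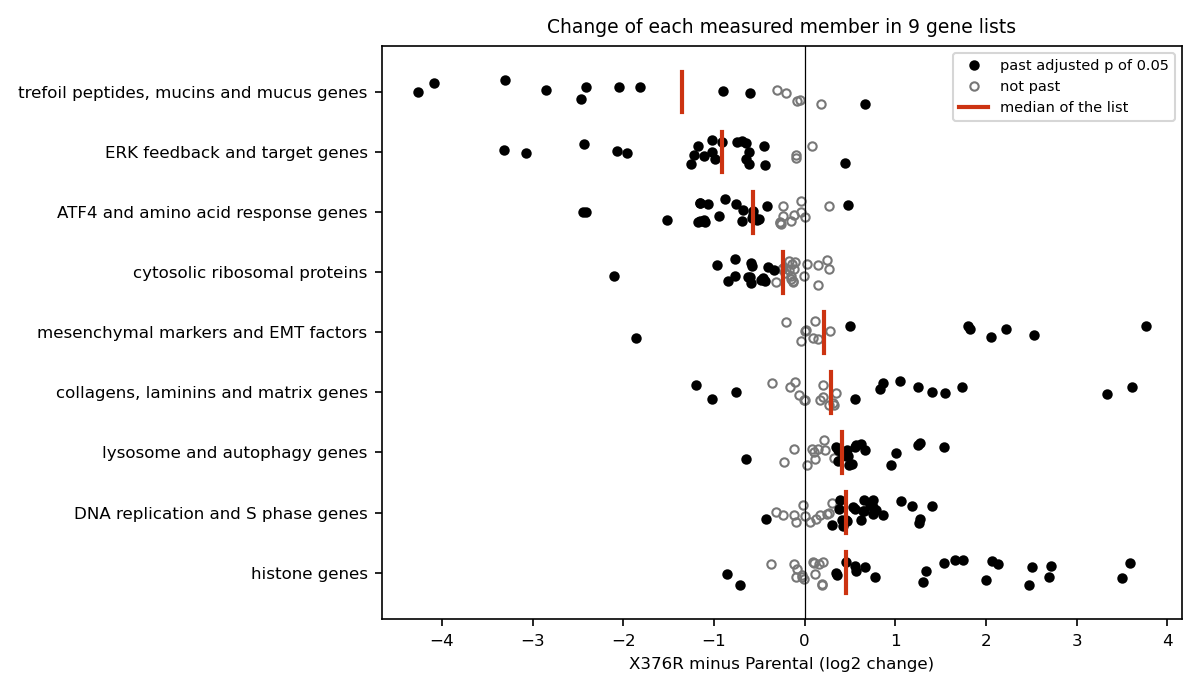
Log2 change of X376R minus Parental for each measured member of 9 gene lists, with filled points past an adjusted p of 0.05, open points not past it and a red bar at the list's median. Medians run from -1.35 for trefoil peptides, mucins and mucus genes to 0.46 for histone genes, and the positive lysosome median of 0.42 turned to -0.09 when arrays were centred on their median. The mucus median was -0.455 with no filter and -2.05 among genes above background on all 9 arrays, and the histone median 0.107 and 1.06.

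Genes of the amino acid response, which the transcription factor ATF4 induces when translation is slowed by eIF2-alpha phosphorylation, were lower. Of 34 measured genes 22 fell and 1 rose, a median of -0.57, and with arrays centred on their median 30 fell and 0 rose. DDIT4, an inhibitor of mTORC1, read 11.40, 11.40 and 11.28 on the Parental arrays and 9.19, 9.05 and 8.51 on the X376R arrays, a fall of 5.43-fold. TRIB3, a pseudokinase that restrains ATF4, read 9.23, 9.69 and 9.74 on the Parental arrays and 7.39, 6.87 and 7.17 on the X376R arrays, a fall of 5.32-fold (adjusted p = 8.88e-09). CEBPG, a dimer partner of ATF4, read 9.67, 9.30 and 9.39 on the Parental arrays and 7.59, 8.01 and 8.21 on the X376R arrays and fell 2.87-fold. ATF4 itself fell by 0.69 on the log2 scale, a call lost with array brightness as a covariate (adjusted p = 0.132). ASNS, asparagine synthetase, read 10.45, 10.05 and 9.96 on the Parental arrays and 9.14, 8.96 and 8.90 on the X376R arrays and AARS1, alanyl-tRNA synthetase, read 10.66, 10.82 and 10.61 on the Parental arrays and 9.56, 9.82 and 9.40 on the X376R arrays, falls of 1.15 and 1.11. In DDIT4, TRIB3, CEBPG, ASNS and AARS1 every Parental array lay above every X376R array.

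ATF4 binds with C/EBP partners to a composite element whose core can be written TGATGNAA. A search of both strands of the RefSeq windows found it in 11 of 30 members with a window and in 4.46% of 27305 genes. The list was written from knowledge of ATF4 targets, so this is a description. The matches of 4 members that fell are shown, each with 25 bases on either side, 5′ to 3′ on the gene's strand of GRCh38.p14, with the match, TGATGNAA or its reverse complement TTNCATCA, in capitals. They lie at chr7:97872444-97872501 (minus strand) for ASNS, chr16:70289661-70289718 (minus) for AARS1, chr15:40953237-40953294 (plus) for CHAC1 and chr19:33374046-33374103 (plus) for CEBPG.
ASNS: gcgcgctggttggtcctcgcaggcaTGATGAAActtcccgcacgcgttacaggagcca
AARS1: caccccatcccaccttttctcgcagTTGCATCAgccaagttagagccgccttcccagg
CHAC1: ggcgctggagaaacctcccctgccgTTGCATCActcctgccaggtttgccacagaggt
CEBPG: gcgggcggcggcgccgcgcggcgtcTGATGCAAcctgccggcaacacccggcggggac
CHAC1, which degrades glutathione, read 6.47, 6.54 and 6.35 on the Parental arrays and 5.86, 6.09 and 5.92 on the X376R arrays, below background on all X376R arrays, and fell at least 1.23-fold. ASNS, AARS1, CHAC1 and ATF4 were chosen after their values were seen.

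Genes of the unfolded protein response and chaperones were balanced, 5 of 26 measured genes higher and 5 lower, against 14.0% and 14.2% of all genes. That balance rested on the scaling, since with arrays centred on their median 0 rose and 15 fell. HSP90AA1, a cytosolic chaperone that stabilizes the EML4-ALK protein, read 11.87, 11.71 and 11.85 on the Parental arrays and 12.71, 13.03 and 13.03 on the X376R arrays and rose by 1.11, and HSPA1B rose by 0.95, but with arrays centred on their median both missed the threshold (adjusted p = 0.12 and 0.32). DNAJB1, an Hsp40 co-chaperone, fell by 1.24. HSPA5, the main chaperone of the endoplasmic reticulum, differed by -0.23 (adjusted p = 0.323), but was called lower with arrays centred on their median, at -0.77, and was chosen after its value was seen. HSPA5 was also called lower without Parental replicate 1, at -0.44. Of 34 measured cytosolic ribosomal proteins 15 fell and 0 rose, with 33 lower and 0 higher when arrays were centred on their median and 2 lower and 0 higher with array brightness as a covariate. RPS7, a small-subunit protein, read 9.66, 9.76 and 9.82 on the Parental arrays and 7.50, 7.78 and 7.67 on the X376R arrays and fell by 2.10 (second probe -2.15), while the other 14 fell by 0.97 or less.

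Glycolysis and hypoxia genes were lower more often than higher, 11 of 27 measured against 3. HK2, the hexokinase of tumour cells, read 8.80, 8.32 and 8.34 on the Parental arrays and 6.35, 6.46 and 6.28 on the X376R arrays and fell 4.35-fold (second probe -1.07). NDRG1, a hypoxia-induced gene, read 9.92, 9.46 and 9.66 on the Parental arrays and 7.27, 7.53 and 7.37 on the X376R arrays and fell 4.91-fold, and ADM, adrenomedullin, fell 2.62-fold. SLC2A1, the glucose transporter, and LDHA, lactate dehydrogenase, fell by 0.70 and 0.64 on the log2 scale, whereas ENO1, enolase, rose by 0.55. GAPDH differed by -0.02 (adjusted p = 0.927). Respiratory chain and ATP synthase subunits were divided, 8 of 34 higher and 6 lower, led by SDHC at 0.94 and UQCRH at -0.90. Among all genes 14.0% were higher and 14.2% lower, and with arrays centred on their median 0 of these subunits rose and 21 fell. SLC2A1, LDHA, ENO1 and GAPDH were chosen after their values were seen. SDHC missed the threshold with arrays centred on their median (0.44, adjusted p = 0.0787), where ENO1 turned to -0.18 and GAPDH was called lower at -0.78. SDHC, UQCRH, SLC2A1 and LDHA missed it with array brightness as a covariate (adjusted p = 0.168, 0.0689, 0.108 and 0.1).

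Lipid genes differed by step. LSS, which closes the sterol ring, read 6.33, 6.37 and 6.35 on the Parental arrays and 7.60, 7.82 and 7.54 on the X376R arrays and rose by 1.30, although its 2 other probes gave 0.03 and 0.12. MSMO1 rose by 0.99 and IDI1 by 0.80, and 7 of 19 measured genes of cholesterol synthesis and uptake were higher and 1 lower, a median of 0.26 that turned to -0.08 with arrays centred on their median. ACSS2, which makes acetyl-CoA from acetate, read 7.70, 7.20 and 7.18 on the Parental arrays and 9.30, 9.56 and 9.36 on the X376R arrays and rose 4.13-fold. LPIN1, a phosphatidate phosphatase, read 11.06, 10.91 and 10.91 on the Parental arrays and 8.90, 8.93 and 8.75 on the X376R arrays and fell 4.29-fold. The acyl-CoA synthetases ACSL4 and ACSL1 rose by 1.37 and 1.22, whereas SCD, the desaturase, and SREBF1 fell by 1.19 and 0.89, the last 2 chosen after their values were seen. MSMO1 missed the threshold with arrays centred on their median (adjusted p = 0.0714).

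Lysosomal genes were higher in X376R cells, 18 of 29 measured with 1 lower and a median of 0.42, but with arrays centred on their median 4 rose and 4 fell and the median was -0.09, which is 0.10 above that of all genes. LAMP2, a lysosomal membrane protein, read 7.95, 7.88 and 7.87 on the Parental arrays and 9.58, 9.40 and 9.34 on the X376R arrays, a rise of 1.54 (SE 0.11, adjusted p = 8.04e-09), and 4 of its 5 other probes were also called higher. CTSA, a protective carboxypeptidase, read 7.28, 7.06 and 7.19 on the Parental arrays and 8.36, 8.47 and 8.53 on the X376R arrays, a rise of 1.28 (SE 0.11), and CTSL, a cysteine protease, rose by 1.25. GABARAPL1, of the autophagosome membrane, rose by 1.0. The proton pump subunits ATP6V1H and ATP6V1A rose by 0.95 and 0.57. CTSB fell by 0.65, and TFEB, the transcription factor of lysosome genes, differed by 0.08 (adjusted p = 0.708). TFEB left the filter in 2 of 6 fits without 1 array, so it was above background on few arrays. ATP6V1H, ATP6V1A, CTSB and TFEB were chosen after their values were seen. ATP6V1H missed the threshold with arrays centred on their median (adjusted p = 0.204) and ATP6V1A turned to -0.09 there, and CTSB missed it with array brightness as a covariate (0.19).

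Interferon-stimulated genes were divided, 12 of 33 measured higher and 7 lower, with 0 higher and 10 lower when arrays were centred on their median. IFI27 read 7.94, 8.25 and 8.04 on the Parental arrays and 6.36, 6.23 and 6.19 on the X376R arrays and fell 3.52-fold. The antiviral membrane proteins IFITM2 and IFITM1 fell 4.03-fold and 2.71-fold, and IFI6 rose 2.35-fold. The immunoproteasome subunits PSMB10, PSMB8 and PSMB9 rose by 0.95, 0.71 and 0.59, and of 17 measured genes of HLA class I and antigen processing 7 rose and 0 fell, against 0 and 2 with arrays centred on their median. HLA-B and HLA-C differed by 0.52 (adjusted p = 0.0611) and 0.07 (0.73). IFI6, PSMB10, PSMB8 and PSMB9 missed the threshold with arrays centred on their median (adjusted p = 0.087, 0.0762, 0.317 and 0.232). PSMB9 also missed it as the mean of its probes (0.0573). HLA-B passed it with the replicate number as a block (0.0264), with the filter on all 9 arrays (0.042) and without X376R replicate 3 (0.80, adjusted p = 0.00103).

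Inflammatory genes that NF-kappaB induces fell more often than they rose, 9 of 25 measured against 4. CCL20, a chemokine for CCR6-bearing cells, read 12.11, 11.82 and 12.31 on the Parental arrays and 10.20, 9.80 and 10.32 on the X376R arrays and fell 3.92-fold. CXCL8, interleukin-8, read 11.62, 11.70 and 11.81 on the Parental arrays and 9.86, 10.18 and 10.42 on the X376R arrays and fell 2.94-fold (second probe -1.89 on the log2 scale), and PTGS2, cyclooxygenase-2, fell 3.47-fold. CYBA, a subunit of the NADPH oxidase, read 10.51, 10.39 and 10.14 on the Parental arrays and 6.95, 7.02 and 6.53 on the X376R arrays and fell 11.4-fold. IL6, below background on all Parental arrays, rose at least 1.94-fold, and CCL2 rose by 1.05 on the log2 scale. The list's median of -0.13 became 0.01 with array brightness as a covariate. HLA-B, HLA-C, IL6 and CCL2 were chosen after their values were seen.

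Of 20 measured genes of the PI3K, AKT and mTOR pathway 4 rose and 4 fell, against 14.0% higher and 14.2% lower among all genes, and with arrays centred on their median 0 rose and 11 fell. INPP4B, a phosphoinositide phosphatase, rose by 0.84, PIK3CB, a catalytic subunit of PI3K that was below background on all X376R arrays, fell at least 1.33-fold, and TSC1, a restraint on mTORC1, rose by 0.46 (adjusted p = 0.0109) but read -0.06 with arrays centred on their median. RPS6KB1, the S6 kinase, gave -0.54 with overlapping arrays (adjusted p = 0.032), but missed the threshold in 3 of 6 fits without 1 array (adjusted p up to 0.176), without background correction (0.0514), with no filter (0.0637) and with array brightness as a covariate (-0.05, adjusted p = 0.963). PIK3CB and TSC1 also missed it with that covariate (0.143 and 0.402), and INPP4B with arrays centred on their median (0.0871). TSC1 missed it in 2 of 6 fits without 1 array (up to 0.0616) and as the mean of its probes (0.222).

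**Figure D5:**
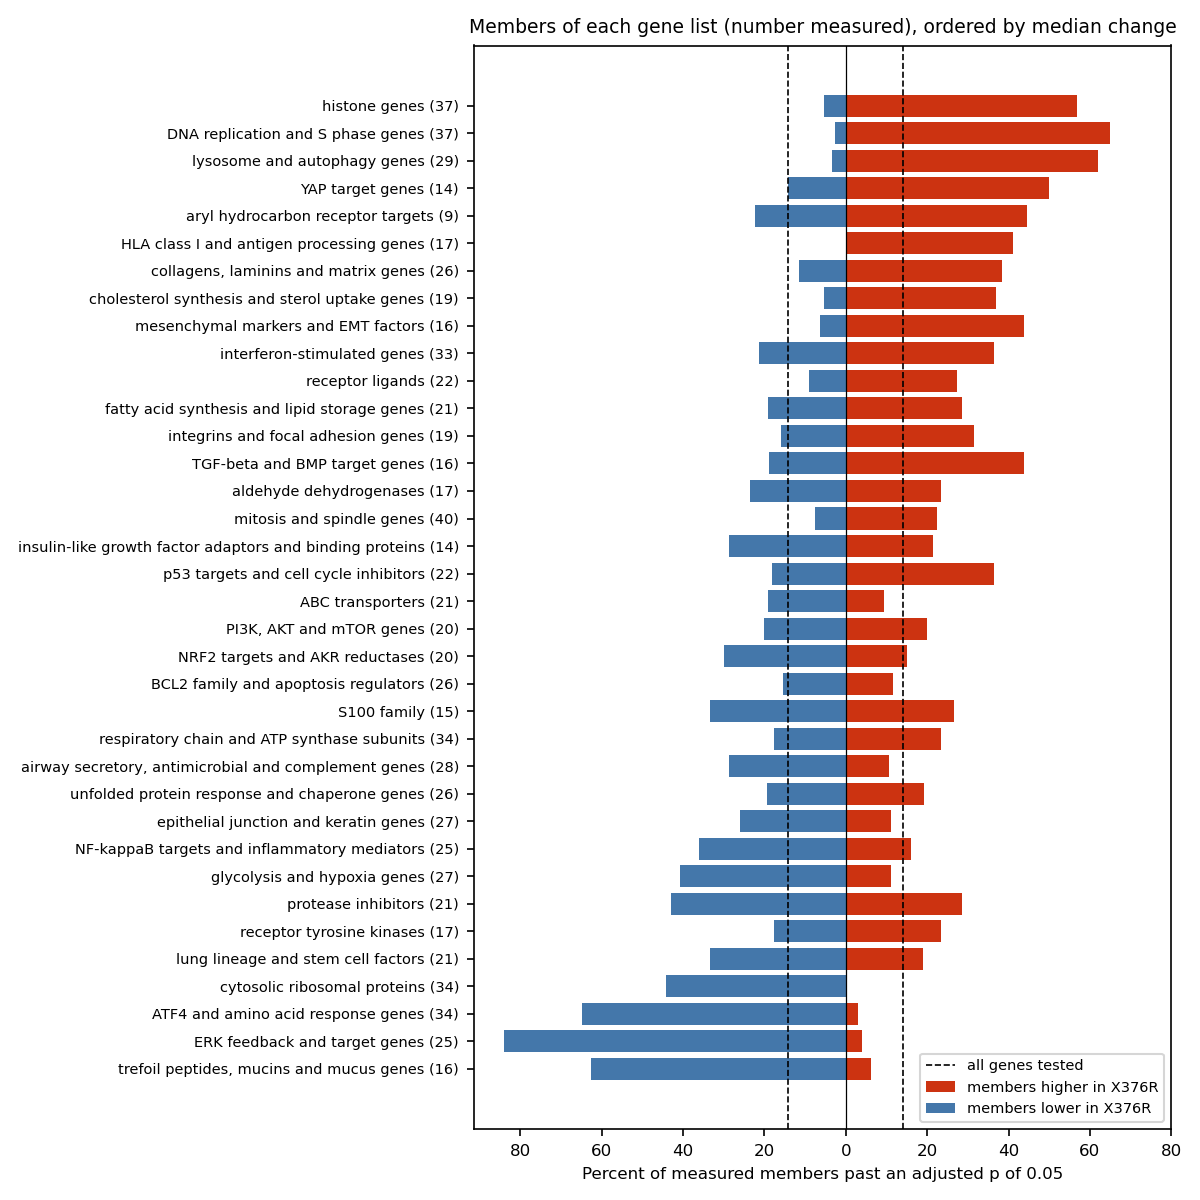
Percent of the measured members of 36 gene lists called higher (red, to the right) or lower (blue, to the left) in X376R than in Parental, ordered by the median log2 change, with dashed lines at the shares of all 13769 genes (14.0% higher and 14.2% lower). Histone and DNA replication lists stand at the top and the ERK and mucus lists at the bottom, and the medians of 15 of these lists, among them the lysosome, HLA and cholesterol lists, changed sign when arrays were centred on their median.

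The X376R and PF1066R lines share their parent, and their comparisons share the 3 Parental arrays, so the 2 resistant lines were set against each other directly. PF1066R differed from Parental in 2539 genes (18.4%), 1250 higher (9.08%) and 1289 lower (9.36%). X376R differed from PF1066R in 2213 genes (16.1%), 1098 higher (7.97%) and 1115 lower (8.10%). CST6 read 6.96, 7.20 and 6.89 in PF1066R, below all arrays of both other lines, and X376R exceeded PF1066R by 3.64 (adjusted p = 5.86e-12). TGFBI read 7.58, 7.99 and 7.55 in PF1066R, which is lower than in Parental, and the 2 resistant lines were 3.33 apart (adjusted p = 1.48e-11). AGR2 read 12.59, 12.57 and 12.25 in PF1066R, above Parental, against 9.87, 9.18 and 9.55 in X376R, a difference of -2.94 (adjusted p = 3.42e-10). VIM read 6.70, 6.88 and 6.95 in PF1066R, and X376R exceeded it by 3.48 (adjusted p = 1.58e-12). For DUSP6 the PF1066R arrays read 9.86, 9.72 and 10.08, 1.15 above X376R (adjusted p = 4.88e-06).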

How the data were processed

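Total RNA of 9 samples was hybridised to Illumina bead arrays, and the table the authors deposited gives a linear intensity for each probe without normalization. It holds no detection p. Scanner software and bead summarization were not given in the sources used here. The normalized log2 values that the authors also deposited had equal distributions in most columns, as quantile normalization gives, and the submitters' processing notes name R 2.15. They served only as an alternative, since the replicate 1 columns correlated with their own quantile-normalized signals at 0.997 to 0.9975 and the other columns at 0.9998.

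The 47322 probes with a value were corrected with limma 3.58.1 (normexp, offset of 50) in R 4.3.3, read with data.table (version 1.17.8), quantile-normalized and put on the log2 scale. A probe was kept if above the highest of 92 external control probes on at least 3 of 9 arrays, which left 26814, and 18575 of these had a gene. The tables do not name the control probes, which were recognised by their range of IDs from knowledge of the platform, a substitute for the missing detection p. In the platform annotation 30113 probes had 1 symbol, 8 had several and 17202 had no symbol, and 30074 were found in RefSeq. The probe with the highest mean stood for a gene, and 3662 genes had others. limma's lmFit and eBayes were fitted with 1 mean per line on all 9 arrays (6 residual and 10.6 prior degrees of freedom), and p-values were adjusted by Benjamini-Hochberg over 13769 genes. For a gene below background on all arrays of a line, a fold "at least" sets the brighter line's mean against the higher, per array, of the probe's own signal and the lowest signal above background. The number of arrays limits the precision.

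The 41 gene lists hold 1026 distinct genes, of which 840 were measured. Members and lists were chosen with earlier results of these data known. Lists are described by counts and medians without a set test. Genes were named by rule: the 15 largest rises and 15 largest falls among called genes whose lines did not overlap and whose brighter line was above background on all 3 arrays, passing over numbered loci; ALK, EML4, EGFR, ERBB2, ERBB3, MET, AXL, KIT, IGF1R, INSR (no measured probe), IRS1 and IRS2; up to 4 called members of each list; and the 6 largest changes called in the opposite direction in PF1066R. Genes outside the rule are said to be chosen after their values were seen, and with them 252 genes were recomputed under each alternative whose filter they passed. Same-numbered samples of different lines were not taken as pairs. Promoter windows were RefSeq's on GRCh38.p14, from 250 bases before to 50 after a start. Simulated data used the Parental means and spread for every array. In them 94%, 88%, 78% and 98% of genes changed by -2, -1, 1 and 2 on the log2 scale were called, with 9 false calls among 13769 genes. The changed genes, 50 of each size, were all above background on all 9 arrays, and the simulated lines did not differ in brightness. These shares thus do not carry over to genes near background or to lines of unlike brightness.

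Alternatives were no background correction, an offset of 16, arrays centred on their median, cyclic loess, no filter, a filter on all 9 arrays, the authors' log2 table, only the 6 arrays, a replicate block, array brightness as a covariate, the mean of a gene's probes, and leaving out each array.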

Additional observations from a re-analysis of the deposited data

Results flagged for a closer look

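The results set out here are genes described above whose X376R and PF1066R arrays moved in opposite directions from Parental, each past an adjusted p of 0.05 in limma. Their direct difference between the resistant lines passed too. With opposite directions that difference is larger than either change, so its passing adds no support. Both changes use the same 3 Parental arrays, and only the direct difference is free of them. X376R minus PF1066R was 3.64 for CST6, 3.33 for TGFBI, 3.11 for CCN1, 3.33 for LGALS1, 2.77 for PMEPA1, 2.70 for CCN2, 2.36 for CDH2, 1.92 for CD44, 1.61 for ITGA3, 1.57 for LAMB1 and 1.43 for HBEGF, all higher than Parental in X376R and lower in PF1066R. It was -3.67 for ALDH3A1, -3.29 for SCD, -3.26 for BPIFB1, -3.23 for IFI27, -2.94 for AGR2, -2.42 for CCL20, -1.86 for SREBF1 and -1.78 for SPRY4, all lower than Parental in X376R and higher in PF1066R. CST6, CCN1, BPIFB1, TGFBI, CCL20 and AGR2 met the part of the naming rule that asks for opposite directions, and SCD, SREBF1, SPRY4, LGALS1, CCN2, CDH2, ITGA3, LAMB1 and HBEGF were chosen after their values were seen, so the number listed here says nothing about how common such genes were. Among all tested genes other than numbered loci, 85 were called in opposite directions in the 2 resistant lines.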

How the results depend on the processing

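The count of genes at least 2-fold changed was 964 (438 higher, 526 lower) with an offset of 16. With arrays centred on their median, 387 genes were higher and 4204 lower in all, and 1203 at least 2-fold, 75 higher and 1128 lower. There CCNB2 turned to -0.0161, TSC1 to -0.0572, MUC1 to -0.00684, AHR to -0.30, ATP6V1A to -0.0929, CDKN1A to -0.19, ENO1 to -0.18, H3-3A to -0.16, MCM7 to -0.13 and PCNA to -0.00713, and AHR was also -0.0317 as the mean of its probes. With array brightness as a covariate 1149 genes were called, 585 higher and 564 lower, and 55 of 252 recomputed genes lost their call, against 32 with centring. The causes of these shifts were not tested, and brightness and line cannot be told apart, as all Parental arrays were brighter than all X376R arrays. Leaving out 1 of the 6 arrays gave 3069 to 3701 calls, 1585 to 1866 higher and 1479 to 1835 lower, and 507 to 596 at least 2-fold, 236 to 277 higher and 271 to 319 lower. The replicate block gave 4167 calls, and among these genes it changed only the call of HLA-B, to higher. Same-numbered samples deviated together at r = 0.00, 0.22 and 0.15 for replicates 1, 2 and 3, and other pairs at -0.231 to 0.104. The main fit did not take the numbers to pair samples, and whether they do was not tested. No background correction, cyclic loess, no filter, a filter on all 9 arrays, the authors' log2 table, the 6 arrays alone and the mean of probes gave 3290 to 4151 calls. Genes below background throughout 1 line have only a lower bound on their change.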
